A study of Mus musculus with 6 samples.

Results

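The genes described here are the 10 mouse genes of serotonin and monoamine synthesis and transport, *Tph1*, *Tph2*, *Ddc*, *Th*, *Dbh*, *Slc18a1*, *Slc18a2*, *Slc6a4*, *Maoa* and *Maob*. They were taken by gene symbol, because they are among the genes that tell the serotonin-storing enterochromaffin cell of the gut from the peptide-secreting L-cell, and they are 10 of the 54281 genes in the count matrix. GLUTag cells, a mouse line of enteroendocrine origin, make proglucagon, secrete GLP-1 and stand in for the L-cell. RNA sequencing was done on 6 wells of these cells, all in 1 condition: low glucose medium (1 g/L) with 10% FBS, on wells coated with 0.4% Matrigel, for 48 h before harvest. The wells fell into 2 groups that the labels name, 3 wells of plate 1 at passage 23 and 3 wells of plate 2 at passage 27, and no well was treated or genetically altered. Plate and passage therefore cannot be told apart. No source says that wells of a plate came from separate cultures, so a spread or a p-value here measures the variation between wells. A spread over all 6 wells also holds any difference between the plates.

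Library totals ran from 21399987 to 36488198 counts. Libraries of plate 1 are given as replicates 1, 2 and 3. The labels do not tie a column of plate 2 to a numbered well, so those libraries are called the lowest-total, middle-total and highest-total library of plate 2. Reads came from the 3′ end of polyadenylated transcripts, with 1 tag per molecule, so counts scaled to a library total of 1000000 (CPM) of different genes can be set side by side without a length correction. A count of 0 allows up to 3 counts, equal to 0.0822 CPM in the largest library and 0.14 CPM in the smallest, and all such limits and intervals cover counting error only. The middle-total library of plate 2 stood apart from the other 2 of its plate. On the log2(CPM + 1) scale it was set against the mean of the other 2. Of the 13516 genes with a mean of 1 CPM or more, 941 (6.96%) lay below -1 in it and 14 (0.104%) lay above 1. Some results that rest on the middle-total library are therefore also given without it.

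Serotonin is made from tryptophan in a pair of steps, hydroxylation by a tryptophan hydroxylase and decarboxylation by aromatic L-amino acid decarboxylase. *Tph1* encodes the hydroxylase of enterochromaffin cells and the pineal gland, and *Tph2* that of serotonergic neurons. *Ddc* encodes the decarboxylase, which also turns L-DOPA into dopamine, and *Th* (tyrosine hydroxylase) and *Dbh* (dopamine beta-hydroxylase) encode the enzymes before and after it on the way to noradrenaline. *Slc18a1* and *Slc18a2* encode the vesicular monoamine transporters VMAT1 and VMAT2, *Slc6a4* the serotonin transporter of the plasma membrane, and *Maoa* and *Maob* the mitochondrial monoamine oxidases that break amines down.

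In these cells the decarboxylase and both oxidases were well expressed, whereas both tryptophan hydroxylases were at the detection limit. *Ddc* had the highest mean of the 10 genes at 145 ± 27.9 CPM (SD, n = 6), followed by *Maoa* at 62.5 ± 3.33 CPM and *Maob* at 25.8 ± 4.02 CPM. *Slc18a1*, *Th* and *Dbh* were lower, at 5.87 ± 0.918, 2.26 ± 0.499 and 1.05 ± 0.408 CPM. These 6 genes had more than 3 counts in every library. The other 4 did not, and *Slc18a2* had no count in any library.

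**Figure D1:**
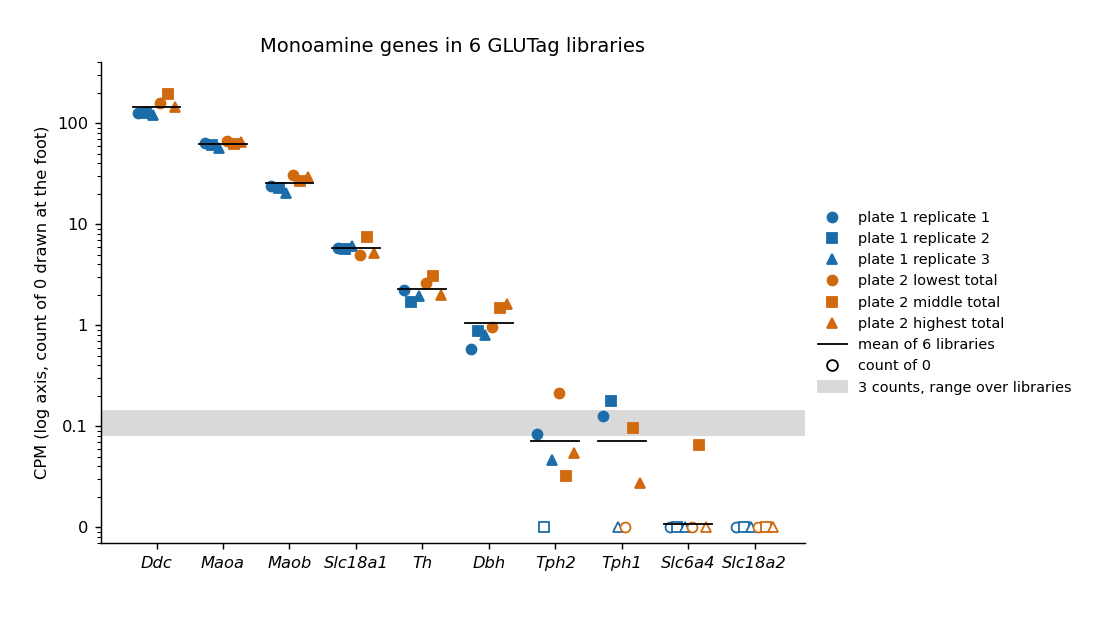
CPM (log axis) of the 10 genes in each of 6 libraries, with plate 1 in blue, plate 2 in orange, the mean of 6 libraries as a line and the level of 3 counts as a grey band. *Ddc*, *Maoa*, *Maob*, *Slc18a1*, *Th* and *Dbh* lie above the band in every library and do not overlap with their neighbours in the order, whereas *Tph2*, *Tph1*, *Slc6a4* and *Slc18a2* lie around it, below it or at 0.

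*Ddc* and *Tph1* encode consecutive enzymes of serotonin synthesis, 1 with the highest level of the 10 genes and 1 at the detection limit, and both have 2 start sites in the promoter table of RefSeq (GRCm38.p6). A 3′ tag does not tell which start a transcript used, so each count below is the sum over both. The 250 bases before each start are printed 5′ to 3′ on the strand of the gene, and the motifs described after them are in capitals, searched on both strands.
Ddc, upstream start, chr11:11898145-11898394, minus strand: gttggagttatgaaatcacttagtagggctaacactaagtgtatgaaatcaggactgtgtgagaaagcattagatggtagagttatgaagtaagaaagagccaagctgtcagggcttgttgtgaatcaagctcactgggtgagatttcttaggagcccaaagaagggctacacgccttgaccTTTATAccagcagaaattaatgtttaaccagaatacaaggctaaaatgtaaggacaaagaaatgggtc
Ddc, downstream start, chr11:11890409-11890658, minus strand: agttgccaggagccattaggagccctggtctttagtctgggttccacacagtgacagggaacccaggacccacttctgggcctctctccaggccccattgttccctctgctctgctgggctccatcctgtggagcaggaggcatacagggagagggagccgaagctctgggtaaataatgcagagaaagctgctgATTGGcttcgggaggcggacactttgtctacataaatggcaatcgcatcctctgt
Tph1, upstream start, chr7:46672538-46672787, minus strand: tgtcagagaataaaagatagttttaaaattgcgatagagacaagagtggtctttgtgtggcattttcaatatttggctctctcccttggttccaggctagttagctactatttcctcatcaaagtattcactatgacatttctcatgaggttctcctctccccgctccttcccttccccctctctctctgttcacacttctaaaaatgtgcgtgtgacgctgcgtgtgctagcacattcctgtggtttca
Tph1, downstream start, chr7:46667378-46667627, minus strand: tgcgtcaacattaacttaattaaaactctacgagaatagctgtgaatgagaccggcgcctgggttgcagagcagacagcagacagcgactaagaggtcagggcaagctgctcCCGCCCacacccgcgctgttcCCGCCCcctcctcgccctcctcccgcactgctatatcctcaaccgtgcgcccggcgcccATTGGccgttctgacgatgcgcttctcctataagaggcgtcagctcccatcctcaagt

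The downstream windows of both genes hold a CCAAT box on the reverse strand, 55 bases before the start in *Ddc* and 58 bases before it in *Tph1*. CCAAT in either orientation was found in 33.8% of 32851 such windows in the table, so the match is common. The upstream window of *Ddc* holds the TATA box sequence TATAAA on the reverse strand (12.4% of windows) and the downstream window of *Tph1* holds the GC box sequence GGGCGG on the reverse strand at 2 places (32.7% of windows). The upstream window of *Tph1* holds none of the motifs searched. Promoter windows were found for 8 of the 10 genes, and *Slc18a1* and *Maob* had no entry. Among the others, TGACGTCA, the palindromic cyclic AMP response element, occurred in *Th* alone, 45 bases before the start (1.55% of windows), CCAAT occurred in *Dbh* too, 150 bases before the start, TATAAA occurred in *Tph2*, and GGGCGG in *Th*, *Slc18a2*, *Slc6a4* and *Maoa*. The E-box CACGTG (6.02% of windows) was in none of the 10 windows of these genes. These matches are letters in a window and were not tested as binding sites.

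Hydroxylation is the rate-limiting step of serotonin synthesis, and neither gene for it rose clearly above the limit of detection. *Tph1* (chr7:46644641-46672537, minus strand) had 3, 4 and 0 counts in replicates 1, 2 and 3 of plate 1, and 0, 3 and 1 counts in the lowest-total, middle-total and highest-total library of plate 2. *Tph2* (chr10:115078641-115185022, minus strand) had 2, 0 and 1 counts on plate 1 and 6, 1 and 2 counts on plate 2 in the same order. Each gene exceeded 3 counts in 1 library alone, replicate 2 of plate 1 for *Tph1* and the lowest-total library of plate 2 for *Tph2*, and had no count in at least 1 library. Over all 6 libraries together *Tph1* had 11 of 163512770 counts, 0.0673 CPM with a 95% Poisson interval of 0.0336 to 0.12 CPM, and *Tph2* had 12, 0.0734 CPM with an interval of 0.0379 to 0.128 CPM. The intervals overlap almost completely, and which of the hydroxylase genes was higher was not detectable at this depth.

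*Ddc* (chr11:11814101-11898144, minus strand) had 2999, 2830 and 2604 counts in replicates 1, 2 and 3 of plate 1, and 4456, 5982 and 5257 counts on plate 2. In CPM these are 125.0, 125.0 and 122 on plate 1 and 159, 194 and 144 on plate 2. Plate 1 was even, with an SD of 1.92 CPM around 124 CPM, and plate 2 was higher and more spread, with an SD of 25.4 CPM around 165 CPM. In CPM 35.2% of all genes tested were higher on plate 2 without overlap, and after TMM scaling *Ddc* overlapped, at 130.5 to 141 CPM on plate 1 and 131 to 179 CPM on plate 2. The highest value was in the middle-total library of plate 2, and without that library the mean over 5 libraries was 135 CPM. By mean level *Ddc* ranked 1139 among 27044 genes with any count. Its counts exceeded those of *Tph1* over all libraries by 2193-fold, with an exact 95% interval of 1226 to 4395 that is wide because *Tph1* had so few. The noncoding gene *1700042O10Rik* overlaps *Ddc* on the other strand. Whether the authors counted by strand is not given in the sources used here, so a part of the *Ddc* count from that gene cannot be told apart.

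The catecholamine enzymes were present at low levels. *Th* (chr7:142892752-142931128, minus strand) had 54, 38 and 42 counts on plate 1 and 74, 94 and 73 counts on plate 2, or 2.25, 1.68 and 1.96 CPM and 2.63, 3.04 and 2.00 CPM. The plates overlapped in CPM, with the highest library of plate 1 above the lowest of plate 2. *Dbh* (chr2:27165233-27183200, plus strand) had 14, 20 and 17 counts on plate 1 and 27, 46 and 59 counts on plate 2, or 0.583, 0.884 and 0.794 CPM and 0.961, 1.49 and 1.62 CPM. All 3 plate 2 libraries were above all 3 of plate 1 in CPM for *Dbh*, as for 35.2% of all genes tested, and after TMM scaling the plates overlapped. With 14 counts in the smallest case, *Dbh* had the largest relative spread of the 6 genes, with an SD of 38.7% of its mean against 5.33% for *Maoa*. That spread also holds the difference between the plates, whose means were 0.754 CPM (plate 1) and 1.36 CPM (plate 2). The next enzyme of the series, *Pnmt*, which makes adrenaline from noradrenaline, had at most 1 count in any library.

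Of the transporters, only the gene for VMAT1, the form of endocrine cells, was measured above the limit in every library. *Slc18a1* (chr8:69037711-69089235, minus strand) had 141, 128 and 129 counts on plate 1, or 5.88, 5.66 and 6.03 CPM. On plate 2 it had 139, 233 and 188 counts, or 4.95, 7.54 and 5.15 CPM. The middle-total library of plate 2 was the highest and the other 2 of that plate were the lowest, so the plates overlapped. *Slc18a1* lies opposite to *Atp6v1b2* and *Gm15716* on the plus strand, and the remark on strand made for *Ddc* holds here too. *Slc18a2* (chr19:59260896-59296012, plus strand), the gene for VMAT2, the form of neurons, platelets and mast cells, had 0 counts in all 6 libraries. Set against the floor of 3 counts per library, *Slc18a1* was at least 42.7-fold higher than *Slc18a2* in replicate 2 of plate 1 and at least 77.7-fold higher in the middle-total library of plate 2, with the other libraries in between. *Slc6a4* (chr11:76998603-77032340, plus strand) had 2 counts in the middle-total library of plate 2 and 0 in the other 5, so it was not above the limit in any library.

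A 3′ library can miss a gene whose end is annotated wrongly or whose tail is read from another place. The canonical poly(A) signal AATAAA was present in the last 50 bases of the coding transcript with the longest genomic span in 7 of the 10 genes, *Tph1*, *Tph2* and *Slc18a2* included, against 58.1% of 21901 coding genes. *Slc6a4* carried the variant ATTAAA, and with either signal 8 of 10 had a match against 70.7% of genes. *Th* and *Dbh*, which were both detected, had neither. Whether low counts come from few transcripts or from transcripts that end elsewhere was not tested.

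Both monoamine oxidases were measured well. *Maoa* encodes the form with preference for serotonin and noradrenaline, and *Maob* the form with preference for phenylethylamine. The genes are neighbours on chromosome X, *Maoa* at chrX:16619698-16687818 on the plus strand and *Maob* at chrX:16709282-16817366 on the minus strand, with their 3′ ends facing each other across 21463 bases. *Maoa* had 1533, 1362 and 1230 counts on plate 1 and 1877, 1921 and 2354 counts on plate 2, or 63.9, 60.2 and 57.5 CPM and 66.8, 62.1 and 64.5 CPM. It was the steadiest of the 6 genes above the limit, and its plates overlapped. *Maob* had 578, 519 and 436 counts on plate 1 and 872, 831 and 1066 counts on plate 2, or 24.1, 22.9 and 20.4 CPM and 31.1, 26.9 and 29.2 CPM. Every plate 2 library was above every plate 1 library in CPM for *Maob*, which is again the case of 35.2% of all genes, and with TMM the plates overlapped.

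In the order of levels, *Ddc*, *Maoa*, *Maob*, *Slc18a1*, *Th* and *Dbh* differed from their neighbours beyond their ranges over 6 libraries. The ratio of means was 2.31 for *Ddc* over *Maoa*, 2.43 for *Maoa* over *Maob*, 4.39 for *Maob* over *Slc18a1*, 2.59 for *Slc18a1* over *Th* and 2.14 for *Th* over *Dbh*. The closest were *Th*, whose lowest library had 1.68 CPM, and *Dbh*, whose highest had 1.62 CPM. *Dbh* lay above *Tph2* in every library, whereas *Tph2*, *Tph1*, *Slc6a4* and *Slc18a2* overlapped and have no order at this depth.

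Paralogs and consecutive enzymes were compared inside each library on the log2(CPM + 1) scale, with signs flipped over the 6 libraries in an exact permutation test (two-sided). With 6 libraries the smallest p this test can give is 0.0312, and p-values were adjusted by Benjamini-Hochberg. *Slc18a1* exceeded *Slc18a2* by 2.77 ± 0.18 (SD, n = 6) in 6 of 6 libraries, and *Ddc* exceeded *Tph1* by 7.07 ± 0.29. Since *Slc18a2* had no count and *Tph1* had none in some libraries, their direction was fixed and both values are a description. *Maoa* was higher than *Maob* by 1.26 ± 0.15 and *Ddc* was higher than *Th* by 5.47 ± 0.13, both in 6 of 6 libraries with an exact permutation p = 0.0312 (n = 6), an adjusted p = 0.0391 over 5 pairs and 0.0469 over the 3 pairs whose direction was not fixed, a choice made after the data had been seen. In both pairs the ranges of the genes did not overlap, so this p is at its floor and gives only the common direction over wells. The pairs themselves were chosen with earlier results of these data known. *Tph1* and *Tph2* did not differ in a common direction. Their mean log2 ratio was -0.0010 with an SD of 0.17, *Tph1* was higher in 3 libraries and lower in 3, and the exact permutation p was 1 (n = 6). The size of a difference from a gene at or near 0 is set by the pseudocount. With 0.1 in place of 1 CPM the *Slc18a1* to *Slc18a2* difference was 5.89 and that of *Ddc* to *Tph1* 9.82, and with 5 CPM they were 1.12 and 4.86, in the same direction.

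**Figure D2:**
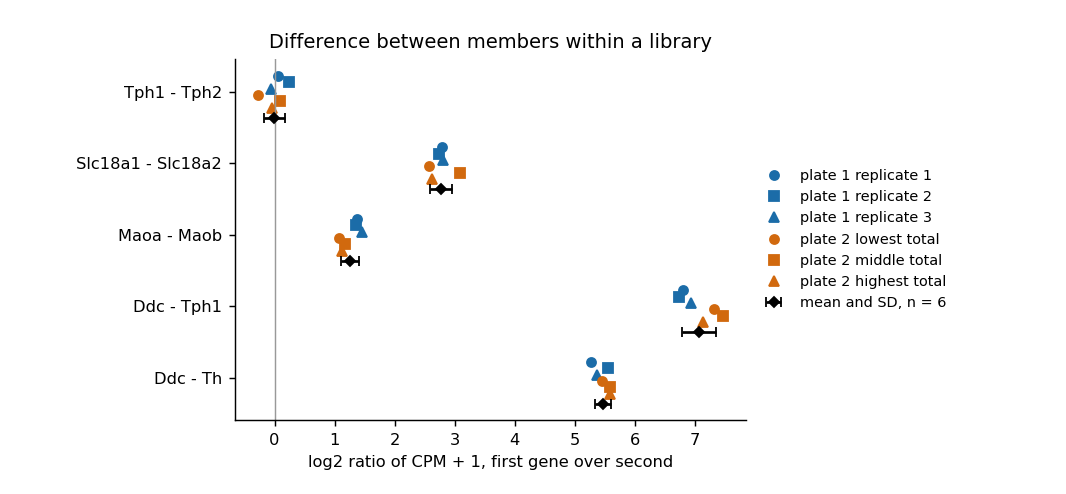
Log2 ratio of CPM + 1 of the first gene over the second, for 5 pairs, in each library (blue for plate 1, orange for plate 2) with the mean and SD of 6 libraries as a black diamond and bar. The ratios of *Slc18a1* to *Slc18a2*, *Maoa* to *Maob*, *Ddc* to *Tph1* and *Ddc* to *Th* lie above 0 in all 6 libraries, and that of *Tph1* to *Tph2* lies on both sides of 0.

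Where both genes lie well above the pseudocount, a ratio within a library depends little on how libraries are scaled to each other. The ratio of *Maoa* to *Maob* was 1.39 ± 0.052 on plate 1 (log2, range 1.35 to 1.45, n = 3) and 1.13 ± 0.049 on plate 2 (range 1.08 to 1.18, n = 3), so the plates did not overlap. The difference was -0.27, with an exact permutation p = 0.1, which is the smallest p that 3 libraries against 3 can give. The ratio of *Slc18a1* to *Slc18a2* (with overlap) follows the scaled level of *Slc18a1* alone, since *Slc18a2* had no count. That of *Ddc* to *Tph1* (6.83 on plate 1 and 7.31 on plate 2, without overlap) follows the scaled level of *Ddc* and the few counts of *Tph1*. The plates overlapped for *Tph1* to *Tph2* and *Ddc* to *Th*. This comparison of plates was added after the values had been seen. The share of all gene pairs whose plates do not overlap was not computed, so these ratios are a description.

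The question of which of these genes differed between the plates was put to the whole matrix, since plate is the one grouping in the labels. In edgeR's quasi-likelihood test with TMM scaling, 29 of 15669 genes tested (0.185%) had an adjusted p under 0.05, with 2 of them higher on plate 2 and 27 lower. At an unadjusted p under 0.05 there were 2520. The number of adjusted calls changed with the scaling and with the library left out, as given in the last section. Scaled by the total count alone, most calls were higher on plate 2. Of the 10 monoamine genes 6 were tested and 0 passed, and *Tph1*, *Tph2*, *Slc18a2* and *Slc6a4* were removed by the filter on low counts. At an unadjusted p under 0.05 in edgeR 0 of the 6 passed, and 0 passed the adjusted threshold in DESeq2, which gave *Dbh* no adjusted p, and in limma-voom.

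The largest fitted difference was that of *Dbh*, with a log2 fold change of 0.58 (SE 0.39, edgeR adjusted p = 0.507). *Slc18a1* had -0.26 (SE 0.22, edgeR adjusted p = 0.624) and *Maoa* -0.18 (SE 0.11, edgeR adjusted p = 0.485). The values were 0.15 for *Ddc* (SE 0.13), 0.11 for *Th* (SE 0.27) and 0.10 for *Maob* (SE 0.14), with edgeR adjusted p of 0.638, 0.887 and 0.774. The median of the 6 genes was 0.11, against 0.03 over all genes tested.

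The differences between plates depended on how the libraries were scaled. The median change of all genes was 0.30 on the log2 scale with the total count alone and 0.03 with TMM. In CPM over the total, 3 of the 6 genes, *Ddc*, *Dbh* and *Maob*, were higher on plate 2 without overlap, as were 35.2% of all genes tested. After TMM scaling 0 of the 6 were higher without overlap, and 1, *Maoa*, was lower without overlap, as were 12.0% of all genes tested. With the total count alone the log2 fold change of *Ddc* was 0.42, that of *Maob* 0.37 and that of *Dbh* 0.85, and *Maoa* and *Slc18a1* changed sign to 0.09 and 0.01. Without the middle-total library of plate 2, *Ddc* had -0.02, *Th* -0.07 and *Slc18a1* -0.52. None of the 6 passed the adjusted threshold under any of these settings in edgeR, where the smallest adjusted p with the total count alone was 0.068 for *Ddc*.

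**Figure D3:**
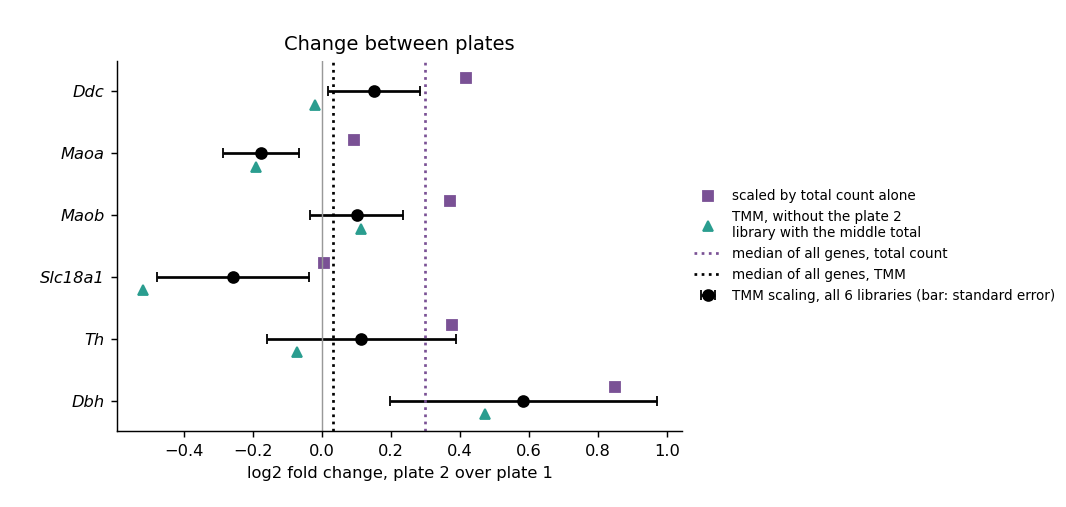
Log2 fold change of plate 2 over plate 1 for the 6 genes tested, from edgeR with TMM (black, bar for 1 standard error), with the total count alone (purple) and with TMM without the middle-total library of plate 2 (green), beside the median of all genes under both scalings (dotted lines). The TMM values lie between -0.26 and 0.58, and the purple points are shifted to the right by about the shift of the median of all genes.

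The steps around these genes were described with 6 more lists of 65 genes in all, of which 31 could be tested between plates and 0 passed in edgeR (14 had a log2 fold change above 0, median -0.05). Aromatic amino acid hydroxylases need tetrahydrobiopterin (BH4), and genes listed around the synthesis, regeneration, regulation and use of this cofactor were measured, with 9 of 10 at more than 3 counts in every library and a range of means from 5.26 CPM (*Pts*) upward among these 9. The exception was *Agmo*, with at most 2 counts, named after its counts were seen. Among the 9 were *Akr1b3* at 170.4 ± 24.5 CPM and *Pcbd1* at 168 ± 11.9 CPM (SD, n = 6), which encode an aldose reductase and pterin-4a-carbinolamine dehydratase. *Gch1*, the gene for GTP cyclohydrolase, the first enzyme of BH4 synthesis, had 108 ± 23.3 CPM and is named after its values were seen.

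Uptake of tryptophan, tyrosine and phenylalanine runs through LAT1, encoded by *Slc7a5* with its heavy chain *Slc3a2*, and through the aromatic amino acid transporter encoded by *Slc16a10*. *Slc3a2* had 97.0 ± 36.1 CPM, *Slc16a10* 24.9 ± 5.46 CPM and *Slc7a5* 4.60 ± 0.657 CPM, and 4 of the 7 uptake genes had more than 3 counts in every library. Of 8 other transporters that carry amines, 5 did. *Slc29a4*, which encodes the low-affinity plasma membrane monoamine transporter, had 22.0 ± 4.61 CPM and was the highest, above *Slc22a5* at 2.49 CPM and *Slc22a4* at 1.64 CPM, the carnitine and ergothioneine carriers. The plasma membrane carriers of noradrenaline and dopamine, *Slc6a2* and *Slc6a3*, lay at 0.564 and 0.307 CPM, and were looked at after their values were seen. *Slc29a4* exceeded *Slc18a1*, the highest transporter gene among the 10, in every library.

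Among 20 other genes of amine metabolism 9 had more than 3 counts in every library and 6 had none in any. The aldehyde dehydrogenases *Aldh3a2* and *Aldh2*, which act on the aldehydes that the oxidases make, had 25.9 ± 7.26 CPM and 16.1 ± 3.93 CPM. *Hdc*, the histidine decarboxylase that makes histamine and is related to *Ddc*, had 9.70 ± 1.77 CPM, and was chosen after its value was seen. The genes at 0 were *Hnmt*, *Aanat*, *Asmt*, *Ido1*, *Ido2* and *Moxd2*, and they include both enzymes that turn serotonin into melatonin.

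Of 14 serotonin receptor genes 3 had more than 3 counts in every library, *Htr1b* at 7.25 ± 1.72 CPM, *Htr7* at 2.20 CPM and *Htr1d* at 0.729 CPM, and 5 had no count, among them both subunits of the ion channel receptor, *Htr3a* and *Htr3b*. Of 6 dopamine and trace amine receptor genes only *Drd2* had more than 3 counts in every library, at 0.528 CPM, while *Drd3*, *Drd4* and *Taar1* had none.

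**Figure D4:**
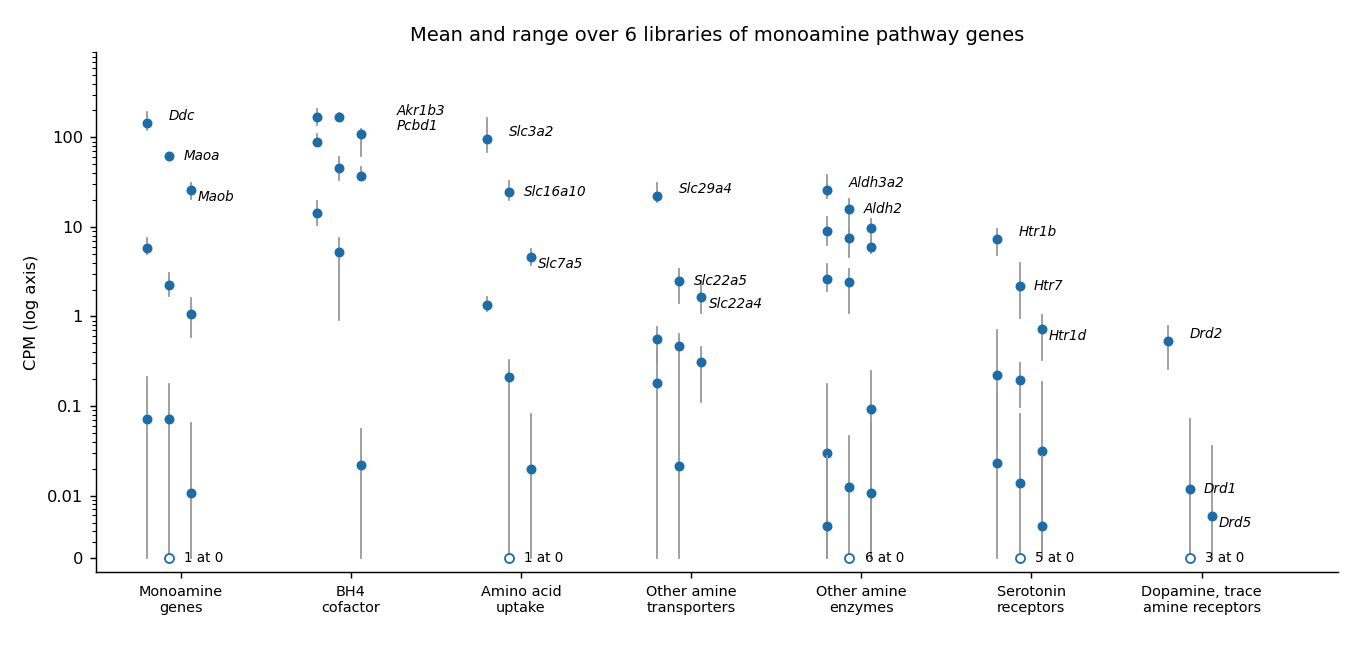
Mean CPM (points, log axis) and range over 6 libraries (lines) of genes of the monoamine set and of 6 other lists, with up to 3 of the highest of each list named and the number of genes without a count written at the foot. The BH4 list lies mostly above 10 CPM, whereas most serotonin and dopamine receptor genes lie below 1 CPM.

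Because these genes are used to tell cell types apart, the markers of other cells were read in the same libraries. Of 16 L-cell markers 15 had more than 3 counts in every library, with *Gcg* at 3416 ± 771 CPM, *Cck* at 1080 ± 277 CPM and *Neurod1* at 617 ± 89.3 CPM, and the exception was *Pyy* with 2 to 17 counts. Not all of this list is particular to L-cells. In the sorted mouse cells that the paper used, *Neurod1* marked the total enteroendocrine population. Of 14 enterochromaffin markers besides the monoamine genes 9 did. These were *Chgb*, *Sct*, *Chga*, *Reg4*, *Fev*, *Mnx1*, *Cartpt*, *Gata4* and *Tac1*, several of which other enteroendocrine cells also express, while *Ucn3* had no count, *Lmx1a* at most 2 and *Trpa1* at most 4. The summed level of the enterochromaffin list was 1351 to 1506 CPM on plate 1 and 1422 to 1852 CPM on plate 2. These sums are scaled by the total count, and with TMM 2 of the 9 genes tested had a log2 fold change above 0 (median -0.13). Of that list *Cartpt* alone, 1 of 9 tested against 0.185% of all genes, passed in edgeR between plates, with a log2 fold change of 1.04 (edgeR adjusted p = 0.046). *Cartpt* passed in 7 of 13 alternatives and was lost in limma-voom and in 5 of 6 edgeR fits with 1 library left out (largest adjusted p 0.349). *Reg4* had -0.74 (edgeR adjusted p = 0.118) and passed in DESeq2, without a filter and without the middle-total library of plate 2, where *Chga* (-0.53) and *Sct* (-0.32) passed too. In that fit 4 of 9 enterochromaffin and 3 of 15 L-cell markers (*Cck*, *Ffar1* and *Pcsk1*) passed, against 12.0% of all genes. *Th* and *Dbh* also mark catecholaminergic neurons, and 6 of the 11 markers listed for them had more than 3 counts in every library (list sum 174 to 182 CPM on plate 1 and 61.3 to 312 CPM on plate 2, or 229 to 312 CPM without the middle-total library, most of it *Insm1*, which endocrine cells share). The other 5 had at most 3 counts in every library, and 3 of these, *Hand2* among them, had none. Only 2 of the 11 had at least 1 CPM in every library. Mast cells, which express *Tph1*, *Slc18a2* and *Hdc*, had their defining genes *Cpa3*, *Mcpt4*, *Tpsb2* and *Fcer1a* at 0 in all 6 libraries, and 2 of the 9 mast cell markers, *Kit* and *Hdc*, had more than 3 counts in every library (list sum 12.7 to 15.8 CPM on plate 1 and 16.0 to 26.1 CPM on plate 2). The enterocyte list summed to 2.06 to 4.74 CPM and the fibroblast list to 5.25 to 7.54 CPM over the 6 libraries. Fewer cells of a kind and less RNA per cell cannot be told apart in these bulk libraries.

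The middle-total library of plate 2 moved some of these genes more than others. Against the mean of the other plate 2 libraries it was 1.49-fold higher for *Slc18a1*, 1.31-fold higher for *Th* and 1.28-fold higher for *Ddc*, and on the log2(CPM + 1) scale *Slc18a1* lay above 93.9% of 13516 genes and *Ddc* above 85.4%. *Maoa* and *Maob* were 0.946 and 0.892 times the mean of the other libraries, near the middle of all genes. Beyond the 10 genes, *Gch1* had 61.4 CPM in this library against 112 to 123 CPM in the other 5. *Pts*, the second enzyme of BH4 synthesis, had 0.906 CPM against 4.90 to 7.54 CPM. *Slc3a2* went the other way, with 166 CPM against 69.6 to 97.5 CPM. *Gch1* and *Pts* were named for these values, so they are a description.

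**Figure D5:**
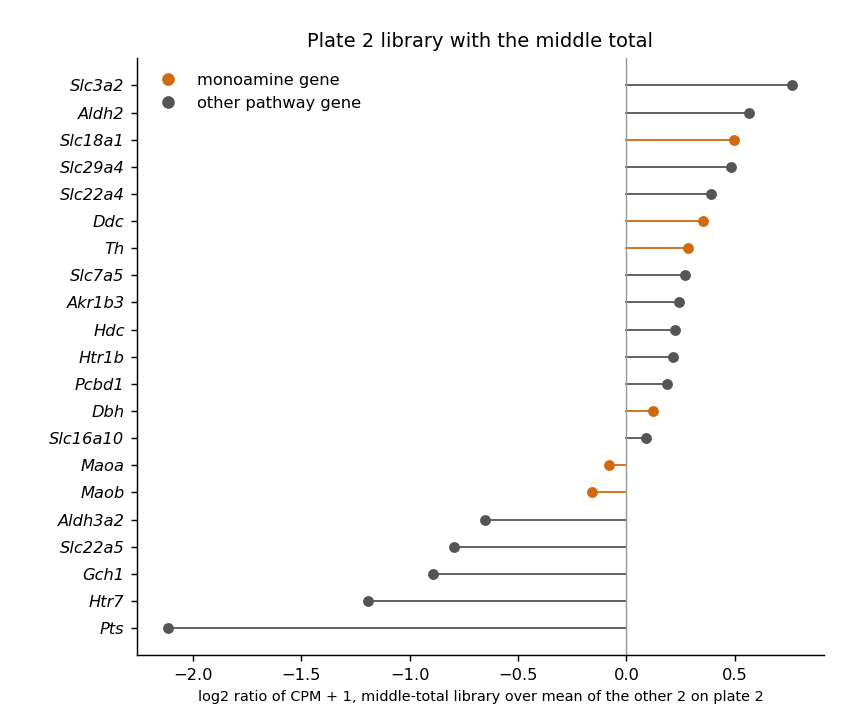
Log2 ratio of CPM + 1 in the middle-total library of plate 2 over the mean of the other 2 libraries of its plate, for the monoamine genes (orange) and other pathway genes (grey) of at least 1 CPM. *Slc18a1* (0.50), *Ddc* (0.35) and *Th* (0.28) lie to the right of 0, *Maoa* and *Maob* slightly to the left, and *Pts* (-2.11) farthest to the left.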

How the data were processed

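Polyadenylated RNA of 6 GLUTag wells was made into 3′ libraries (QuantSeq FWD). The authors trimmed reads (Trim Galore 0.6.4) and quantified them with Salmon 1.5.1 without length correction on GENCODE M23 transcripts of GRCm38. The deposited values are expected counts summed per gene, without normalization. They were divided by the column total for CPM, and rounded to whole numbers for count tests. Symbols and positions came from GENCODE M21 on GRCm38, which held 54107 of the 54281 identifiers, and promoter windows from RefSeq (GRCm38.p6).

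Pairs of genes were compared within libraries by exact sign-flip permutation, and plates by the robust quasi-likelihood test of edgeR 4.0.16 after filterByExpr and TMM scaling (Benjamini-Hochberg over all genes tested, threshold 0.05), which was tested on simulated data first. DESeq2 1.42.0, limma-voom 3.58.1, other scalings, filters and pseudocounts, each plate alone and each library left out were the alternatives. R 4.3.3 and Python 3.11.15 were used. No 2 libraries agreed within sampling noise (lowest chi-square per gene 10.9).

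The 10 genes, the gene lists and the tests were chosen with earlier results of these data known. Named were all 10 genes, the highest 3 of each pathway list (some of these are not reported here), any gene of these lists that passed between plates, marker lists by count, and exceptions marked as chosen after their values were seen.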

Additional observations from a re-analysis of the deposited data

Results flagged for a closer look

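In 3 genes around the monoamine pathway the middle-total library of plate 2 lay far from the other 5 libraries. *Slc3a2*, the heavy chain gene of the LAT1 amino acid transporter, had 166 CPM in it against 69.6 to 97.5 CPM. *Gch1*, the gene for GTP cyclohydrolase, had 61.4 CPM against 112 to 123 CPM, and *Gchfr*, the gene for its feedback regulator, had 46.8 CPM against 33.4 to 37.8 CPM. The gap to the next library was 0.711, 0.812 and 0.672 of the whole range over 6 libraries, past the 95% critical value of Dixon's test. That test takes the 6 libraries as 1 group and ignores the plates. *Slc3a2*, *Gch1* and *Gchfr* were 3 of 37 genes examined, and chance alone marks about 1 in 20. The 37 are the monoamine genes and those of the 6 pathway lists with a mean of at least 10 counts. The share of all genes that Dixon's test marks was not computed, so the count is a description. The set was widened to these 37 after the values had been seen. The same library had the highest *Ddc*, *Th* and *Slc18a1* values, and the part of that library in the result was not tested.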

How the results depend on the processing

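The number of genes past the threshold between plates depended on the processing. It was 29 with edgeR and TMM (2 higher on plate 2), 584 with DESeq2 (157 higher), 1461 with scaling by the total count alone (1390 higher) and 545 with no filter on low counts (255 higher). With each library left out in turn it ranged from 0 to 1911. It was 0 without plate 1 replicate 1 (1611 at an unadjusted p under 0.05 in edgeR) and 0 without the lowest-total library of plate 2 (2121 unadjusted), 2 without plate 1 replicate 2, 6 without plate 1 replicate 3, 9 without the highest-total library of plate 2 and 1911 without the middle-total one. The cause was not tested. The other 4 alternatives stayed within 1.5 times the count. In all 13 alternatives 0 of the 10 monoamine genes passed. Beyond them, without the middle-total library of plate 2, *Gch1* (-0.37), *Gchfr* (-0.37), *Pcbd1* (-0.30) and *Aldh3a2* (0.41) were among the pathway genes that passed. In that fit 12.0% of all 15894 genes tested passed, so these genes are a description. The *Maoa* to *Maob* and *Ddc* to *Th* differences kept their direction in every alternative, with an adjusted p of 0.0391 over 5 pairs by the exact permutation test under both other pseudocounts and TMM, and had no test for single plates. The *Tph1* to *Tph2* difference changed sign, to 0.0074 with TMM and 0.07 on plate 1 alone, and ranged from -0.05 to 0.05 with 1 library left out. The 66 alternative mean levels moved by less than 1 SD of the 6 libraries. A mean over 1 plate alone or with 1 library left out cannot move by that much, so those levels are a description. With 1 library left out the *Maoa* to *Maob* difference was 1.22 to 1.29 and the *Ddc* mean 135 to 149 CPM, and with 5 libraries the pair test has no p below 0.0625. No paired analysis was possible because no source used here pairs a well of plate 1 with a well of plate 2. GEO's titles give them no number in common, and the numbers in the matrix columns restart on each plate. Depth limits *Tph1*, *Tph2*, *Slc6a4* and *Slc18a2*, with an upper bound of 0.0183 CPM over all libraries for a gene without a count.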
